A study of Mus musculus with 9 samples.

Results

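The miR-466 and miR-669 families comprised 11 of the 358 miRNA names recorded in mouse epididymosomes, and were taken as every name that begins with miR-466 or miR-669. There were 6 miR-466 names (miR-466a-3p, miR-466b-3p, miR-466c-3p, miR-466e-3p, miR-466i-5p and miR-466p-3p) and 5 miR-669 names (miR-669a-3p, miR-669a-5p, miR-669c-5p, miR-669o-3p and miR-669p-5p). Because some names carried identical values in all 9 libraries and were counted once, 8 distinct profiles remained, against 352 in the whole table. Epididymosomes are the extracellular vesicles that the epididymal epithelium sheds into the duct lumen. They were isolated from luminal fluid of the caput (proximal), corpus (middle) and cauda (distal) epididymis of untreated male Swiss mice aged 8 weeks by density gradient separation, and their small RNA was sequenced in 3 libraries per segment. The strain, age and sex were the same in all 3 groups, each library held RNA pooled from several animals, and no single animal can be followed. The segments were compared to establish how the miRNA cargo of epididymosomes varies along the duct.

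A miRNA is cut from a hairpin precursor, whose 5p and 3p arms each can yield a mature strand of about the length of a small interfering RNA. The mature strand guides Argonaute proteins to messenger RNAs, mainly through its seed, bases 2 to 8. The miR-466, miR-467 and miR-669 families are rodent miRNAs that lie in many near-identical copies inside an intron of Sfmbt2, which encodes a Polycomb group protein and is an imprinted gene expressed from the paternal allele. The cluster is best known from the placenta and from embryonic stem cells.

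The annotation (GENCODE M21, GRCm38) placed Sfmbt2 on chromosome 2, plus strand, from 10370510 to 10595253. Within it 71 hairpins of the miR-466, miR-669, miR-467 and miR-297 families lay between 10466663 and 10518279, all 71 in an intron of Sfmbt2, a stretch of 51617 bases. Of these, 23 were Mir466, 29 were Mir669 and 19 were miR-467 or miR-297 hairpins. In 11 places a Mir467, a Mir466 and a Mir669 hairpin followed each other directly in this order. These triplets spanned 600 to 611 bases each, and the median distance from the start of one to the start of the next was 2454.5 bases. The cluster thus repeats as a unit, and the mature names are shared among its copies. miR-669a is assigned to 12 hairpins, miR-466b to 8, miR-466c and miR-669p to 2 each, and miR-466a, miR-466e, miR-466p, miR-669c and miR-669o to 1 each. Only for miR-466i-5p was no hairpin found in the cluster. Its hairpin, Mir466i, lies on chromosome 13, plus strand, from 17747473 to 17747593, inside an intron of Cdk13, which is transcribed from the opposite strand. The cluster's name therefore covers 10 of the 11 names, and miR-466i-5p is a family member by name whose annotated hairpin lies at another locus. These loci follow from the names, and the origin of the reads was not tested.

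The RefSeq sequence table held a mature sequence for 0 of the 11 names. To show the kind of sequence found in these families, 3 mature miRNAs of the same families located outside the cluster are given from RefSeq (GRCm38.p6), 5′ to 3′, with the seed in capitals. They do not show how reads of the members were assigned, which was not tested. The first comes from the other arm of the Mir466i hairpin, chr13:17747552-17747573, plus strand, the second from chr3:85467396-85467418, plus strand, and the third from chr3:115979905-115979924, plus strand. None of the 3 is a row of the deposited table.
miR-466i-3p: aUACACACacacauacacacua
miR-466k: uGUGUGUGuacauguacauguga
miR-669n: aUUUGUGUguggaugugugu
All 3 are built largely of alternating CA or UG. The longest alternating run was 11 bases in miR-466i-3p, 9 in miR-466k and 8 in miR-669n, and runs at least as long occurred in 0.299%, 0.538% and 0.777%, respectively, of the 1674 mouse mature sequences in the table. Of the same families RefSeq also held miR-466q and miR-466j, not printed here. Their longest runs were 12 and 7 bases, with shares of 0.179% and 1.135%, respectively.

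The deposited values are CPM, in which each count is divided by the total of its library so that all libraries sum alike. Total reads on miRNAs, which the spacing of the CPM values gives back, were 8274421 to 11306605 for caput libraries, 1548581 to 6190324 for corpus libraries and 2001086 to 5896748 for cauda libraries. The families are minor cargo. The 8 profiles together made up 0.0142% ± 0.00759 of miRNA reads in caput epididymosomes, 0.00777% ± 0.00114 in those of the corpus and 0.0065% ± 0.00149 in those of the cauda (mean ± SD, n = 3 each). These shares add the near-identical miR-466 3p profiles, described below, separately. On average those profiles held 53.2 of the 141.7 CPM in the caput and 13.8 of the 65.0 CPM in the cauda. By contrast, miR-10a and miR-10b together took 50.5 to 71.3%, 50.3 to 53.2% and 33.2 to 34.5% in caput, corpus and cauda, respectively. Library size scaling makes every other miRNA depend on such dominant species. Values were therefore also given after TMM scaling, which centres the libraries on their typical miRNA and used factors of 0.478 (caput 2) to 1.29 (cauda 3). Under library size scaling the median of all tested miRNAs lay 0.81 above 0 on the log2 scale for cauda over caput, against 0.13 after TMM scaling. The part of miR-10a and miR-10b in this shift was not tested.

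The 5 miR-466 names of the 3p arm recorded almost the same reads. miR-466c-3p and miR-466p-3p were identical in all 9 libraries, with 157, 50 and 175 reads in caput libraries, 32, 8 and 11 in corpus libraries and 6, 6 and 28 in cauda libraries. miR-466e-3p differed from them by 1 read, in caput 3, and miR-466b-3p by 3 reads, in corpus 3. miR-466a-3p had fewer reads in 5 of the 9 libraries and otherwise the same number, and the largest difference between any pair of the 5 names in any library was 15 reads, in caput 3. Their totals over the 9 libraries were 439 (miR-466a-3p), 470 (miR-466b-3p), 473 (miR-466c-3p and miR-466p-3p) and 474 (miR-466e-3p). Whether each copy contributed cannot be told apart from 1 set of reads being counted under every name that it matches. Likewise miR-669a-3p and miR-669o-3p were identical, with 1449 reads each over the 9 libraries, as were miR-669a-5p and miR-669p-5p, with 857 each. With the miR-466 3p names pooled, the 11 names hold 5 signals, represented below by miR-466c-3p, miR-466i-5p, miR-669a-3p, miR-669a-5p and miR-669c-5p.

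**Figure D1:**
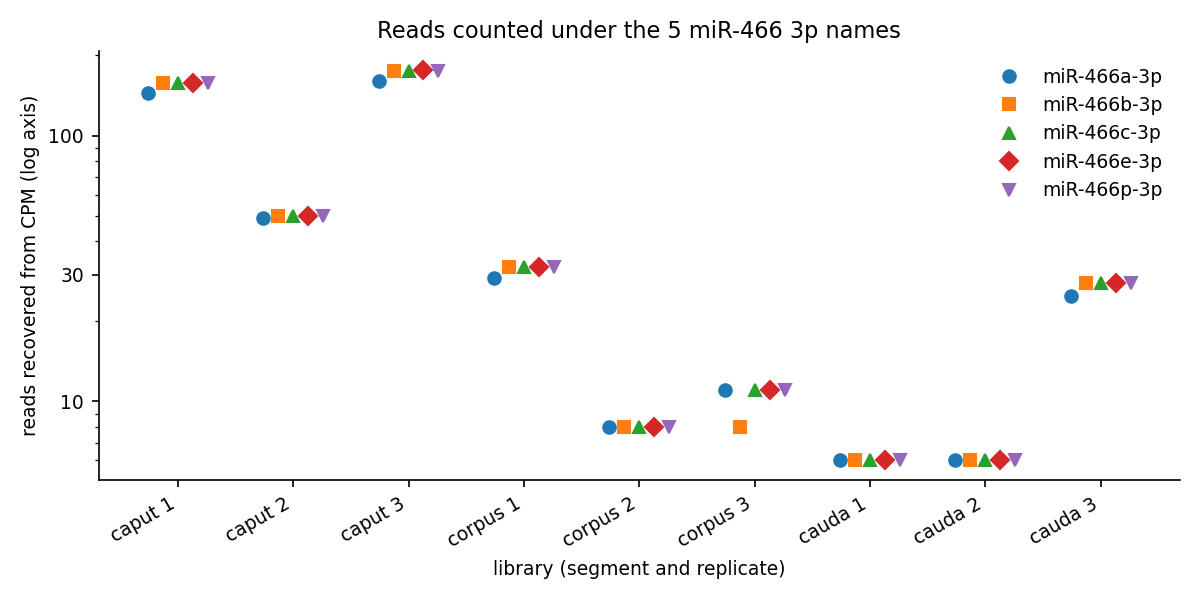
Reads recovered from the deposited CPM (log axis) under each of the 5 miR-466 names of the 3p arm, for each of the 9 libraries. The 5 symbols of a library lie on or close to each other everywhere, from 6 reads in cauda 1 to 176 for miR-466e-3p in caput 3, with miR-466b-3p set apart in corpus 3 (8 reads against 11).

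From the caput to the cauda the 3p strands of miR-466, miR-669a-3p and miR-669c-5p fell, whereas miR-466i-5p rose. By limma on log2(CPM + 1), adjusted by Benjamini-Hochberg across 349 tested miRNAs and a required fold of at least 2, 6 of the 8 profiles were lower in the cauda and 1 was higher. Among all tested miRNAs 10.3% were lower and 38.7% were higher. Since 4 of these 8 profiles are the near-identical miR-466 3p names, in terms of the 5 signals 3 fell, 1 rose and 1 did not pass. The median log2 difference of the 8 profiles was −1.57, beside the 0.81 of all tested miRNAs. Summed over the 8 profiles, the level was 131, 72.0 and 222.5 CPM in the caput libraries and 59.0, 54.0 and 81.9 CPM in the cauda libraries, with caput 2 below cauda 3. The near-identical miR-466 3p profiles enter this sum separately, and with them counted once the fall of the sum was smaller. The CPM ranges of both segments were separate for 6 of the 8 profiles, compared with 54.2% of all tested miRNAs. Of the 5 signals, miR-466c-3p, miR-466i-5p and miR-669c-5p were separate, whereas miR-669a-3p and miR-669a-5p overlapped, a share near that of all tested miRNAs. Every name entered this test, but miR-466a-3p, miR-466b-3p, miR-466c-3p, miR-466e-3p, miR-466p-3p, miR-669a-3p and miR-669c-5p passed the filter of a mean of 10 CPM only through the caput, and miR-466i-5p only through the cauda. With no filter the counts were again 6 and 1.

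miR-466c-3p had 13.9, 6.04 and 20.7 CPM in the caput libraries. Corpus values were 5.17, 3.13 and 7.10 CPM, and cauda values were 2.998, 2.75 and 4.75 CPM. All 3 cauda libraries lay below all 3 caput libraries, although caput 2 lay within the corpus range. The difference between cauda and caput was −1.57 ± 0.51 (log2 ± SE, limma adjusted p = 0.0173), and the other miR-466 3p names gave −1.53 to −1.58. The cauda values rest on few reads. The 6 reads of cauda 2 carry an exact 95% Poisson interval of 1.01 to 5.98 CPM, which covers counting error only. Leaving out caput 1 ended the call for miR-466c-3p (−1.49, adjusted p = 0.0622), as did leaving out cauda 2 (−1.46, adjusted p = 0.0568), and without caput 3 the 3p names no longer reached 10 CPM in either segment.

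miR-669a-3p, recorded identically as miR-669o-3p, had the highest mean CPM of the 5 signals in the caput, with 32.3, 17.2 and 70.3 CPM. It stood at 24.4, 15.7 and 14.9 CPM in corpus epididymosomes, and at 2.50, 6.41 and 19.5 CPM in those of the cauda. It fell by 2.11 ± 0.62 between caput and cauda (log2 ± SE, limma adjusted p = 0.00956). The groups overlapped nonetheless, because cauda 3 exceeded caput 2. The spread within the cauda was wide in terms of reads as well, at 5, 14 and 115, and the intervals of cauda 1 (0.811 to 5.83 CPM) and cauda 3 (16.1 to 23.4 CPM) did not meet. Without cauda 1 the difference was −1.51 (adjusted p = 0.0567).

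miR-669c-5p, which the annotation assigns to a single hairpin (chromosome 2, from 10509296 to 10509404), fell in the cauda whichever library was left out. Its caput levels were 18.0, 10.6 and 25.2 CPM. Corpus levels were 5.98, 7.44 and 4.52 CPM, and cauda levels 4.997, 2.75 and 3.56 CPM. All caput libraries exceeded all corpus and cauda libraries, while corpus and cauda overlapped. The fall from caput to cauda was 3.83-fold (log2 −1.94 ± 0.47 SE, limma adjusted p = 0.00295), and it passed the threshold with any 1 of the 9 libraries left out, at −2.25 to −1.67.

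miR-669a-5p, recorded identically as miR-669p-5p and named for the other arm of the miR-669a hairpins, had 25.2, 13.4 and 25.6 CPM in caput libraries. Corpus levels were 12.3, 14.9 and 7.10 CPM, and cauda levels 14.5, 12.8 and 10.7 CPM. Caput 2 lay among the cauda libraries. The difference between cauda and caput, −0.67 ± 0.45 (log2 ± SE), did not pass (limma adjusted p = 0.228).

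miR-466i-5p, the strand annotated to chromosome 13, ran the other way. It was recorded at 0.796, 6.77 and 20.2 CPM in the caput, and at 11.8, 17.6 and 37.5 CPM in the corpus. Cauda levels were 24.99, 21.1 and 29.7 CPM. The 3 caput values were far apart, since caput 1 held 9 reads in the deepest library (95% interval 0.364 to 1.51 CPM) whereas caput 3 held 171, and caput 3 fell just short of the lowest cauda library. The rise from caput to cauda was 3.90-fold (log2 1.96 ± 0.69 SE, limma adjusted p = 0.0259). It was lost without caput 1 (1.02, adjusted p = 0.174), without caput 2 (2.07, adjusted p = 0.0697) and without cauda 3 (1.84, adjusted p = 0.0625).

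**Figure D2:**
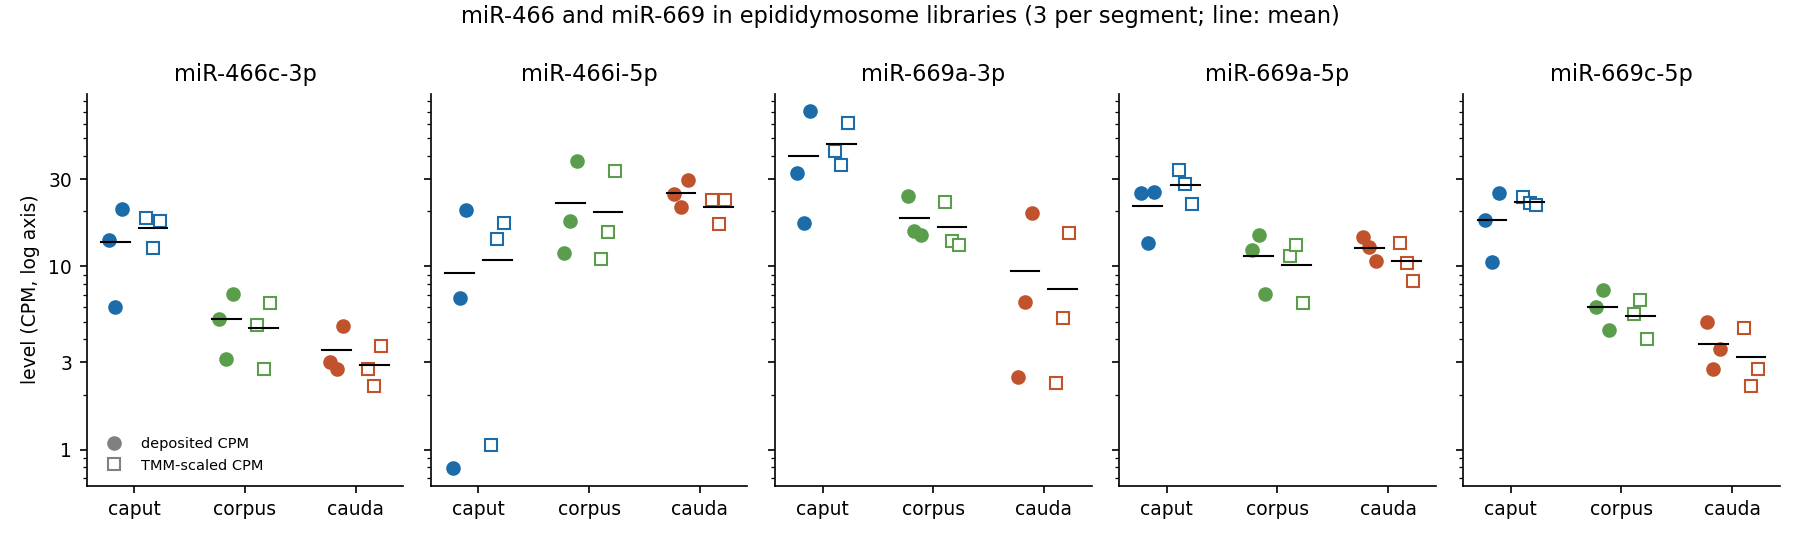
Levels of the 5 signals in each library, in CPM on a log axis, by segment. Filled circles are deposited CPM, open squares TMM-scaled CPM and lines the means of 3 libraries. miR-466c-3p, miR-669a-3p and miR-669c-5p are lowest in the cauda, whereas miR-466i-5p is lowest in the caput, where 1 library has 0.796 CPM and another 20.2 CPM.

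TMM scaling drew the caput libraries together and changed the call for a pair of signals. After it, 7 of the 8 profiles were lower in the cauda and 0 were higher, at a background of 20.3% lower and 24.9% higher. The 7 include the near-identical miR-466 3p profiles, and of the signals all but miR-466i-5p were lower. miR-669c-5p then had 23.8, 22.3 and 21.6 scaled CPM in the caput against 4.61, 2.24 and 2.77 in the cauda (log2 −2.53 ± 0.33 SE, limma adjusted p = 0.000126). miR-669a-3p had 42.8, 35.9 and 60.3 scaled CPM against 2.31, 5.22 and 15.2, without overlap (log2 −2.74 ± 0.51 SE, limma adjusted p = 0.00112). For miR-466c-3p the difference was −2.15 ± 0.36 (log2 ± SE, limma adjusted p = 0.000632). miR-669a-5p now fell as well, from 33.5, 28.1 and 21.9 scaled CPM to 13.4, 10.4 and 8.30 (log2 −1.30 ± 0.35 SE, limma adjusted p = 0.00905). The rise of miR-466i-5p no longer passed (log2 1.40 ± 0.71 SE, limma adjusted p = 0.118), although it kept its direction. The fall of the miR-466 3p names, miR-669a-3p and miR-669c-5p therefore held under both scalings, while the changes of miR-669a-5p and miR-466i-5p each passed under 1 of them. Without caput 3, 3 profiles were lower and 1, miR-466i-5p, was higher after TMM scaling, since the miR-466 3p names were no longer tested. Which scaling comes closer to the content of a vesicle was not tested.

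**Figure D3:**
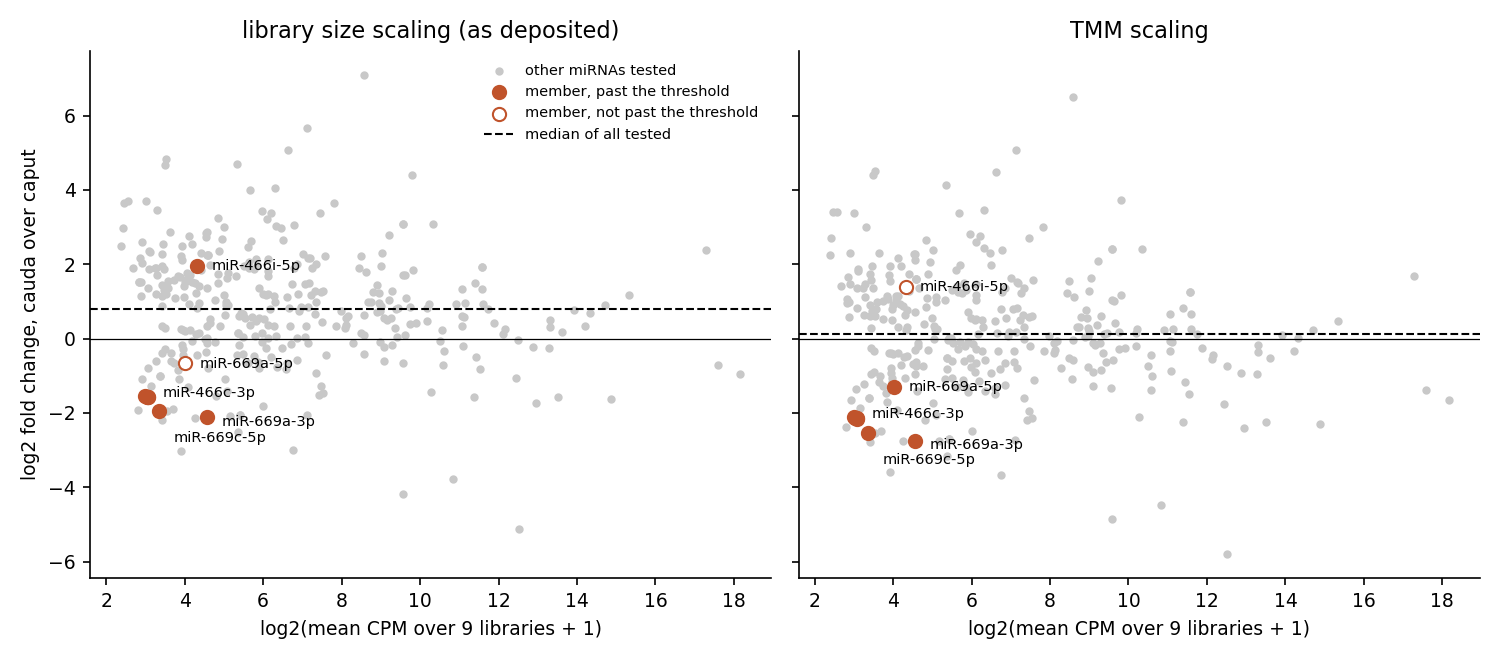
Log2 fold change from caput to cauda for every tested miRNA against its mean level over the 9 libraries, under library size scaling (left) and TMM scaling (right). Filled red points are members past the threshold, open red points members that did not pass, grey points the other miRNAs, and the dashed line the median of all (0.81 and 0.13). miR-466i-5p lies above this line in both panels and the other members below it.

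In the corpus, the middle segment, the mean CPM lay between those of the other segments for all members except miR-669a-5p and the identical miR-669p-5p. Theirs was slightly below that of the cauda (11.4 against 12.7 CPM). Only miR-669c-5p fell from the caput to the corpus (2.61-fold, log2 −1.38 ± 0.47 SE, limma adjusted p = 0.0401), so that 1 of the 8 profiles was lower and 0 were higher, at a background of 3.43% lower and 19.0% higher among 321 tested miRNAs. This call was lost without caput 1, caput 3, any of the 3 corpus libraries or cauda 2, whereas without caput 2 the count rose to 5, with the miR-466 3p names lower, and without caput 3 miR-466i-5p was higher. miR-466c-3p differed by −1.15 ± 0.51 (adjusted p = 0.112) and miR-669a-3p by −0.89 ± 0.62 (adjusted p = 0.309). miR-669a-5p differed by −0.85 ± 0.45 (adjusted p = 0.185) and miR-466i-5p by 1.65 ± 0.69 (adjusted p = 0.0965, log2 ± SE in each case). The CPM of the libraries did not overlap for 2 of the 8 profiles, miR-466b-3p and miR-669c-5p, and for 34.9% of all tested miRNAs. In this comparison the miR-466 3p names and miR-669c-5p passed the filter of 10 CPM only through the caput, and miR-466i-5p only through the corpus. With no filter the counts were again 1 lower and 0 higher. The picture depended on the scaling. After TMM scaling 7 of the 8 profiles were lower in the corpus and 0 were higher, at a background of 15.3% lower and 13.1% higher. The 7 include the near-identical miR-466 3p profiles, and of the signals all but miR-466i-5p were lower. The log2 differences were −1.91 ± 0.33 for miR-669c-5p (adjusted p = 0.00285), −1.66 ± 0.36 for miR-466c-3p (adjusted p = 0.00585), −1.39 ± 0.35 for miR-669a-5p (adjusted p = 0.0127) and −1.45 ± 0.51 for miR-669a-3p (adjusted p = 0.0452). With TMM scaling and no filter the counts were also 7 and 0. Without caput 3 the count after TMM scaling was 2. With 1 library left out miR-669a-3p kept its call only without cauda 1 or cauda 3.

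Between corpus and cauda no member passed. Only miR-466i-5p, miR-669a-3p and miR-669a-5p reached a mean of 10 CPM in either segment, and 0 of these 3 profiles were called higher or lower by limma, with 0 at an unadjusted p under 0.05, while 14.0% of the 342 tested miRNAs were higher and 4.97% were lower. Their differences were 0.31 ± 0.69, −1.22 ± 0.62 and 0.18 ± 0.45, respectively (log2 ± SE). After TMM scaling 0 were called as well, at a background of 9.94% lower and 16.4% higher, although miR-669a-3p had an unadjusted p of 0.0272 (adjusted p = 0.0755). The cauda libraries disagreed on miR-669a-3p. Without cauda 3, in which it stood at 19.5 CPM, it was lower in the cauda (−1.89, adjusted p = 0.0364). The miR-466 3p names, at 6 to 32 reads per library in these segments, were below the filter, and with no filter no member was called either.

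The order of mean levels is given under library size scaling. miR-669a-3p ran caput (39.9 ± 27.4 CPM), corpus (18.3 ± 5.29) and cauda (9.47 ± 8.91, mean ± SD, n = 3 each), and only caput and cauda, which are not neighbours, differed beyond the test's threshold. miR-669c-5p ran caput (17.9 ± 7.28 CPM), corpus (5.98 ± 1.46) and cauda (3.77 ± 1.14), with the caput set apart from both. miR-466c-3p ran 13.5 ± 7.34, 5.14 ± 1.99 and 3.50 ± 1.09 CPM in the same order. miR-669a-5p ran caput (21.4 ± 6.91 CPM), cauda (12.7 ± 1.91) and corpus (11.4 ± 3.96), with no neighbours told apart. miR-466i-5p ran cauda (25.2 ± 4.32 CPM), corpus (22.3 ± 13.5) and caput (9.26 ± 9.95). After TMM scaling the caput also differed from the corpus for miR-669a-3p (limma adjusted p = 0.0452). For miR-669a-5p it then differed from the cauda (limma adjusted p = 0.00905) and from the corpus (limma adjusted p = 0.0127).

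Ratios between members within a library do not depend on how libraries are scaled. In the caput miR-466i-5p had 0.0573, 1.12 and 0.977 reads for each read of miR-466c-3p. Corpus ratios were 2.28, 5.63 and 5.27, and cauda ratios were 8.33, 7.67 and 6.25. The 3 segments did not overlap, and the ratio of miR-466i-5p to miR-466c-3p was higher at each step along the duct. These strands are annotated to chromosome 13 and to the Sfmbt2 cluster, respectively, but the origin of their reads was not tested. Within the cluster, miR-669c-5p had 0.712, 0.793 and 0.986 reads for each read of miR-669a-5p in the caput. Corpus ratios were 0.487, 0.5 and 0.636, followed by 0.345, 0.214 and 0.333 in cauda libraries. These segments did not overlap either, and the ratio of the 2 5p strands of miR-669 was lower at each step. It too rests on few reads, with 7 of miR-669c-5p in corpus 3 and 6 in cauda 2. The ratio of miR-466c-3p to miR-669a-3p showed no such order, at 0.295 to 0.430, 0.2 to 0.478 and 0.243 to 1.20 for caput, corpus and cauda, respectively. These ratios were chosen after the values had been seen, and with 3 libraries against 3 an exact two-sided permutation test cannot give a p below 0.1, so they are given as a description.

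**Figure D4:**
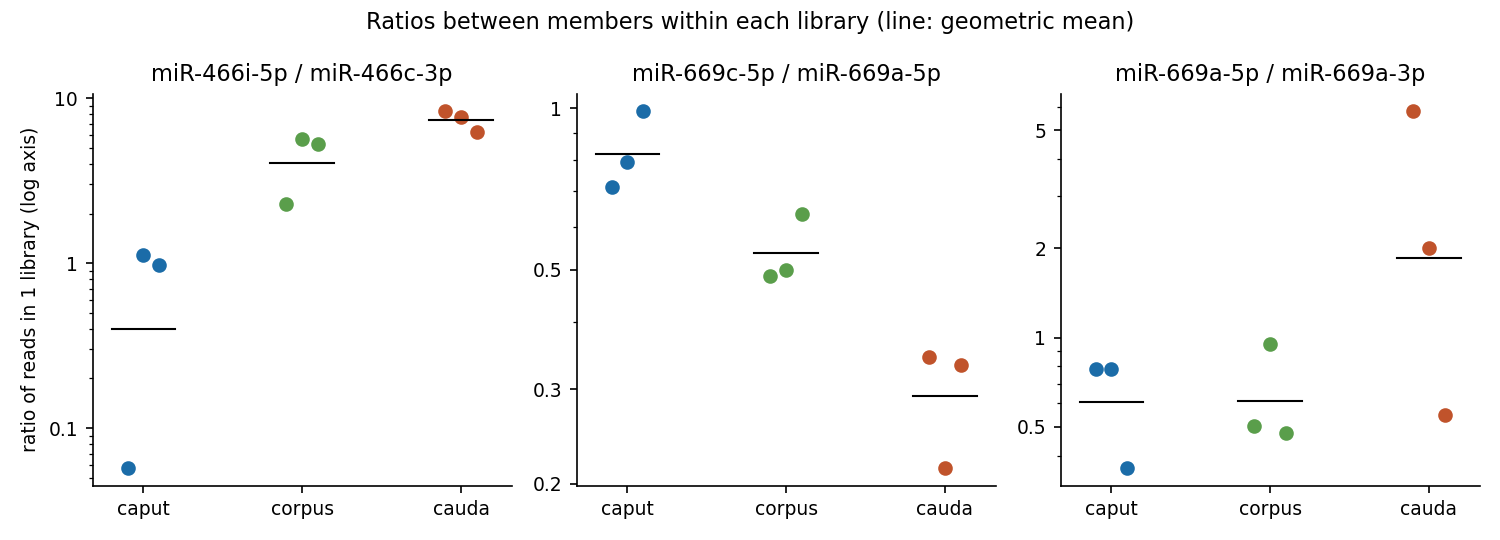
Ratios of reads between members within each library (log axes), by segment. Points are libraries and lines geometric means of 3. The ratio of miR-466i-5p to miR-466c-3p climbs from at most 1.12 in the caput to at least 6.25 in the cauda, that of miR-669c-5p to miR-669a-5p drops from at least 0.712 to at most 0.345, and that of miR-669a-5p to miR-669a-3p is scattered in the cauda, from 0.548 to 5.80.

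The 2 arms recorded as miR-669a can be compared in the same way. The 3p values are also those of miR-669o-3p, and the 5p values those of miR-669p-5p, names assigned to other hairpins. Whether the reads of both arms came from the same hairpins therefore cannot be told. For each read of miR-669a-3p there were 0.781, 0.782 and 0.364 reads of miR-669a-5p in the caput. The corpus values were 0.503, 0.950 and 0.478, and the cauda values 5.80, 2 and 0.548. The 3p arm thus had more reads in all 6 caput and corpus libraries and in cauda 3, whereas the 5p arm led in cauda 1 and cauda 2. On the log2 scale the cauda exceeded the caput by 1.45 ± 0.62 (limma over 64 precursors with both arms recorded, adjusted p = 0.118) and the corpus by 1.40 ± 0.62 (adjusted p = 0.164). The corpus differed from the caput by 0.04 ± 0.62 (adjusted p = 0.963). None of the 3 comparisons passed for miR-669a, against 17.2%, 6.25% and 3.12% of the precursors in them. The outcome depended on single cauda libraries. Without cauda 1 the excess was 0.745 over the caput (adjusted p = 0.407) and 0.702 over the corpus (adjusted p = 0.620). Without cauda 3 the excess was 2.22 over the caput (adjusted p = 0.000439) and 2.18 over the corpus (adjusted p = 0.000774). The cauda 3 library also had the highest cauda value of miR-467a-3p, another 3p strand of the cluster, at 14.4 CPM against 2.50 and 5.04. This was not confined to 3p strands, as it also held for miR-467c-5p, miR-467d-5p and miR-466i-5p. It did not hold for miR-467a-5p, miR-467e-5p, miR-669a-5p and miR-669c-5p, and the cause was not tested.

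The miR-467 family shares the intron with miR-466 and miR-669. It was recorded under 7 names with 5 distinct profiles, and no miR-297 name was recorded. From caput to cauda 4 of the 5 profiles fell and 0 rose, at the background of 10.3% lower and 38.7% higher, with log2 differences of −2.14 to −1.001 over the 5. The profile that did not pass was that of miR-467a-3p and miR-467d-3p (adjusted p = 0.165). All miR-467 names except miR-467a-5p and the identical miR-467b-5p passed the filter of 10 CPM here only through the caput. Between caput and corpus this held for miR-467a-3p, miR-467d-3p and miR-467c-5p. Between corpus and cauda miR-467d-5p and miR-467e-5p passed it only through the corpus. In the other 2 comparisons 0 of the profiles tested passed. After TMM scaling 5 of 5 fell from caput to cauda (background 20.3%), 5 of 5 fell from caput to corpus (background 15.3%), and 1 of the 3 tested fell from corpus to cauda (background 9.94%).

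Among the 347 other miRNAs, the 5 whose log2(CPM + 1) over the 9 libraries ran closest to the summed level of the members were miR-467e-5p (Pearson r = 0.941), miR-322-5p (0.926), miR-582-3p (0.892), let-7f-2-3p (0.888) and miR-135a-5p (0.883). The first of these is itself a strand of the cluster. miR-322-5p is encoded with miR-503 on the X chromosome and is not a neighbour of it. The 9 points share segments and scaling, and the r values describe these libraries only. After TMM scaling miR-467e-5p and miR-322-5p were still first and second (r = 0.956 and 0.950).

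Markers of other cells moved with the segments, and none of the lists moved down with the members under library size scaling. From caput to cauda 5 of 5 miRNAs of red blood cells, 3 of 5 of leukocytes, 5 of 5 of smooth muscle, 5 of 5 of striated muscle, 19 of 19 of the X-linked germ cell cluster and 1 of 8 of epithelium rose, and 0 of any list fell. Among all tested miRNAs 38.7% rose and 10.3% fell. Some of these names passed the filter of 10 CPM only through the cauda. Between caput and corpus only 3 of 5 red blood cell, 4 of 5 leukocyte and 4 of 5 smooth muscle names were tested. For striated muscle and germ cells 1 of 5 and 15 of 19 were tested there. After TMM scaling 3 of 5 miRNAs of red blood cells, 3 of 5 of leukocytes, 2 of 5 of smooth muscle, 5 of 5 of striated muscle, 16 of 19 of germ cells and 0 of 8 of epithelium rose, and 1 of 8 epithelial miRNAs fell, at a background of 24.9% higher and 20.3% lower. The summed level of the red blood cell list from caput through corpus to cauda was 223.4 to 848, 390 to 1106 and 3030 to 4365 CPM, and that of the germ cell list was 188 to 296, 986 to 1133 and 1168 to 1895 CPM. Leukocyte miRNAs summed to 231 to 530, 515 to 1149 and 392 to 1601 CPM. Smooth muscle miRNAs reached 50117 to 89001 CPM in the caput and 291696 to 354797 CPM in the cauda, and striated muscle miRNAs 55.5 to 197 and 1412 to 4166 CPM. The epithelial list, which marks the labelled source of the vesicles, was present throughout, at 21061 to 31929, 72124 to 84357 and 44687 to 61155 CPM in the same order. In at least 1 library, 2 striated muscle names and 1 germ cell name were at 0, and miR-206 had no row. The part of these cells in the levels of the members was not tested, and fewer vesicles of a kind cannot be told apart from less of a miRNA per vesicle.

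**Figure D5:**
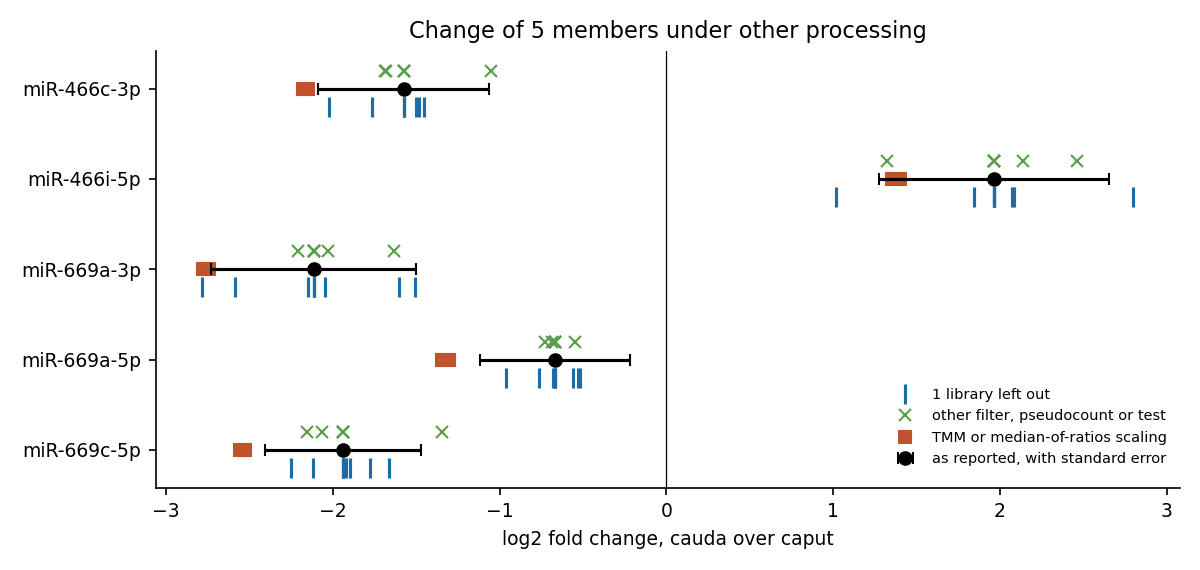
Log2 fold change from caput to cauda for the 5 signals. Black circles with bars are the reported value and its standard error, red squares TMM and median-of-ratios scaling, blue ticks fits with 1 library left out, and green crosses other filters, pseudocounts or tests. No signal changes its direction; scaling moves miR-669a-5p from −0.67 to −1.30 and below.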

How the data were processed

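The authors trimmed the reads with cutadapt, screened them for contaminants, counted them on mature miRNAs with the miRDeep2 quantifier and scaled them to library size. The deposited values are CPM for 358 miRNAs in 9 libraries. The processing notes name CASAVA 1.8.2, Bowtie 1.1.1 and limma. The genome build and miRBase release are not given in the sources used here. Reads were recovered from the CPM steps (100% of values whole within 0.1), with library totals of 1548581 to 11306605. Tests used limma 3.58 in R 4.3: lmFit and eBayes with trend on log2(CPM + 1) for all 358 names and 9 libraries, with segment as the only factor. The Benjamini-Hochberg adjustment covered miRNAs that averaged 10 CPM or more in either segment compared, and calls required an adjusted p under 0.05 and a fold of at least 2. The pseudocount of 1 makes folds of low miRNAs too small. A count test had been planned and was replaced because the unit is CPM. Arm ratios were tested with limma on log2((5p + 1)/(3p + 1)). TMM factors were computed from the recovered reads. On simulated data the test recovered 99.9% of 4-fold changes from caput to cauda among 358 miRNAs, with 0.0784% false calls. Both are means over all simulated miRNAs and do not give the power at the low read counts of the members. The alternatives were other scalings, filters and pseudocounts, limma-voom, the 6 libraries compared alone, a replicate block and leaving out libraries. Members, lists and tests were chosen with earlier results of these data known. All members were named, with the miR-467 and miR-297 names as counts, the 5 miRNAs most alike, rows sharing a member's seed (not run, for want of member sequences) and marker lists as sums. Python 3.11, numpy 2.4, pandas 2.3, scipy 1.17 and matplotlib 3.10 were used.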

Additional observations from a re-analysis of the deposited data

How the results depend on the processing

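The count of members called from caput to cauda was 7 and stayed within 1.5 times of it under TMM and median-of-ratios scaling, no filter, other pseudocounts, limma-voom, the 6 libraries alone and a replicate block. It was 2 with a filter of 20 CPM, where 3 profiles were tested, and 2 to 7 with 1 library left out, at 2 without caput 1, 3 without caput 3 and 3 without cauda 2. The 4 near-identical miR-466 3p profiles enter all counts of this section separately. Among all tested miRNAs 135 were higher and 36 lower in the cauda, and 87 and 71 under TMM scaling. They were 109 and 29 without caput 1, 175 and 27 without caput 3, and 104 and 28 without cauda 2. From caput to corpus the count of 1 became 7 under TMM, 6 under median-of-ratios scaling, 0 with a filter of 20 CPM, 0 by limma-voom, 0 with the 6 libraries alone, 2 with a replicate block, and 0 to 5 with 1 library left out (5 without caput 2). The whole table shifted as well. Among all tested miRNAs 61 were higher and 11 lower in the corpus, against 42 and 49 under TMM scaling. Under median-of-ratios scaling they were 43 and 46, and without caput 2 they were 43 and 28. The cause of these changes was not tested, apart from the fewer profiles left by the stricter filter. From corpus to cauda the count of members was 0 to 1, with miR-669a-3p called without cauda 3, where 39 of all tested miRNAs were higher and 21 lower. TMM scaling combined with no filter or with libraries left out was added after seeing the data. With no filter its counts were unchanged, and with libraries left out they were 2 to 7 from caput to corpus (2 without caput 3), 4 to 7 from caput to cauda (4 without caput 3) and 0 to 1 from corpus to cauda (1 without cauda 3). Between corpus and cauda, miR-669a-5p moved from 0.18 to −0.000999 under median-of-ratios scaling and ranged from −0.10 to 0.39 with libraries left out, and miR-466i-5p from −0.0414 to 0.752. The arm ratio of miR-669a differed by 1.45 from caput to cauda, and with a replicate block this difference passed the threshold (adjusted p = 0.0300). With libraries left out it ranged from 0.745 to 2.22 from caput to cauda, from 0.702 to 2.18 from corpus to cauda, and from −0.32 to 0.23 from caput to corpus. The summed level in the cauda was 0.458 of that in the caput, 0.314 under TMM scaling and 0.536 with the miR-466 3p names counted once, an alternative added after seeing the data. Replicate numbers were shared between segments, and 6 of 9 same-numbered pairs had deviations correlated above 0.1 (−0.21 to 0.44). Pairs with different numbers ran from −0.46 to 0.19. These values do not settle whether the numbers pair the libraries. The main tests do not use a pairing, and the replicate block gives the alternative. A negative binomial test on recovered reads, planned as an alternative, was not run, because each library has too few low values to establish the recovered reads firmly enough for a count model. TMM factors, limma-voom and the Poisson intervals rest on the same recovered reads. Depth limits the cauda values, with as few as 6 reads for the miR-466 3p names and miR-669c-5p and 5 for miR-669a-3p.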
